A study of Mus musculus with 23 samples.

Results

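Binding of p65 (RelA, a subunit of NF-κB) in mouse macrophages was examined where its sites crowd together, in dense clusters of peaks listed after 1 h of Kdo2-Lipid A (KLA). Peaks of the wild type KLA list were sorted by centre along each chromosome, neighbours with centres at most 12.5 kb apart were chained, and chains of 6 or more peaks were kept. Chains in a window of chromosome 9 (chr9:3000000-3100000, mm9) and on chrM, chrY, random or unplaced sequence were left out, which removed 1 chain of 20 peaks. The rule gave 550 clusters, whose members were 4289 of the 30021 peaks of that list (14.3%), out of 58278 peaks in the 5 lists used. The members were thus chosen by the positions of wild type KLA peaks, so the number, spacing and height of those peaks in the clusters are a description with no test.

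The p65 libraries came from thioglycollate-elicited peritoneal macrophages of male C57BL/6 mice of 6 to 8 weeks, starved of serum overnight. All 4 came from mice with floxed NCoR alleles (NCoR fl/fl). Wild type cells lacked the recombinase transgene (Lys M-Cre -/-), while knockout cells carried it (Lys M-Cre +/-), and that transgene is active in myeloid cells. Each genotype was left untreated or given 100 ng/ml KLA for 1 h, and p65 was precipitated with 1 antibody (sc-372). The remaining list holds sites of biotin-tagged LXRβ in RAW264.7 cells, a mouse macrophage line, after 2 h of 1 µM GW3965, an LXR agonist. These were 5 of the 23 samples of the series, with 1 library in each group, so no difference between groups has a replicate check and no p-value is given. Peaks of a cluster share their libraries and are not replicates. The lists hold no expression values, so neither the loss of NCoR nor the cell type was checked here.

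KLA is the lipid A of bacterial lipopolysaccharide with its adjoining Kdo sugars and is sensed by the receptor TLR4. In resting cells p65 is held in the cytoplasm by IκB proteins. Signalling from TLR4 destroys IκB, and p65 then enters the nucleus and binds κB elements in promoters and enhancers, several of which can lie along 1 inflammatory gene locus. NCoR is a corepressor that brings histone deacetylase activity to nuclear receptors such as the LXRs, which sense oxysterols and control cholesterol and fatty acid genes.

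The libraries held 2120392 (wild type KLA), 1673506 (knockout KLA), 777228 (untreated wild type), 786121 (untreated knockout) and 11758634 (LXRβ) tags, with 30021, 22585, 702, 2227 and 2743 peaks. Height is the authors' tag number at a peak per 10000000 tags of its library, and by the total tags 1 tag was worth 4.72, 5.98, 12.9 and 12.7 of these units in the p65 libraries, in the same order. In the LXRβ list 1 tag was worth 0.910, read from the deposited height over the deposited score, since its heights do not follow from its total tags. The lowest listed heights were 18.9, 29.9, 64.3, 63.6 and 8.2, and a site below them may hold tags without being listed. In bulk chromatin, p65 bound in fewer cells and less p65 per cell cannot be told apart.

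Clusters held a median of 7 wild type KLA peaks and at most 23. They spanned 10175 to 118671 bp (median 30150.5 bp) and covered 18.0 Mb together. Density had a median of 2.40 peaks per 10 kb and ranged from 1.35 to 6.06. The members held 19.6% of the summed height of the list, somewhat more than their 14.3% of its peaks. Within the clusters the gap between neighbouring centres had a median of 4299 bp, and 16.8% of the 3739 gaps were shorter than 1000 bp. The cut at 6 peaks fell on a smooth slope of chain sizes: the 379 chains of 5 peaks had a median height of 47.2 per peak, as did the 207 chains of 6. Their span had a median of 18841 and 24537 bp. The share of their peaks overlapping a knockout KLA peak was 61.3% in chains of 5 and 60.0% in chains of 6. For the untreated wild type, untreated knockout and LXRβ lists the shares were 2.37%, 3.69% and 5.22% in chains of 5. In chains of 6 they were 2.17%, 4.75% and 5.15%, so the overlaps described below do not begin at the cut.

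**Figure D1:**
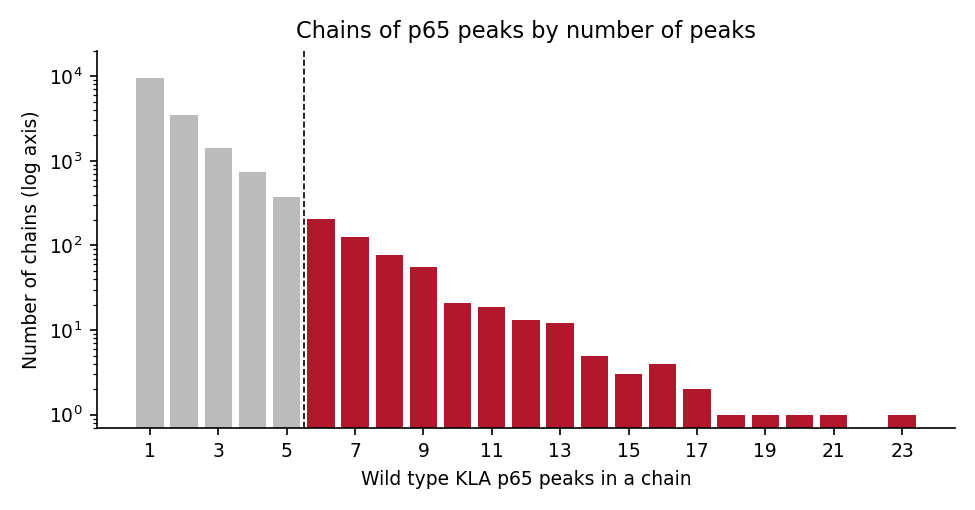
Number of chains (log axis) by the number of wild type KLA p65 peaks they hold, with chains of 6 or more in red to the right of the dashed line. There are 379 chains of 5 peaks and 207 of 6, and the count thins out to a single chain of 23.

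Height was spread over several members in most clusters. The tallest member held a median of 28.3% of the summed height of its cluster, with a range from 10.1% to 64.1%. It was the first or last peak of its chain in 124 clusters (22.5%), while first and last peaks were 25.6% of members. Median height was 47.2 at the 1100 end peaks and 56.6 at the 3189 inner peaks. Clusters lay on every autosome and on X. Chromosome 11 had the most, 54 clusters, followed by chromosome 2 with 52 clusters. Chromosome X had 2 clusters, with 15 members.

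Member peaks were taller than isolated ones. Their median height was 56.6 (quartiles 37.7 and 94.3), against 42.4 in chains of 2 to 5 peaks and 33.0 at the 9558 lone peaks. The fold over the surrounding signal, the authors' ratio of tag density at a peak to that of 10000 bp around it, went the other way, with medians of 16.74 in clusters, 22.43 in shorter chains and 35.73 at lone peaks. A fold under 8, close to the authors' limit of 4, was found at 12.0% of members and 0.0209% of lone peaks. The 10000 bp around a member often held other members, whose tags enter the local signal.

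The cluster with the most peaks, 23, was also the longest, at chr10:18729217-18847887, and had the highest summed height. After KLA its peaks summed to 2716.5 in the wild type library and to 2270.5 in the knockout library, where 16 peaks were listed. The untreated wild type and knockout lists had 1 and 2 peaks there, with sums of 167.3 and 178.1. LXRβ had 1 peak there, of height 15.5. The tallest member, chr10:18735158-18735290, reached 514.1 with KLA in the wild type library and 597.5 in the knockout one. It was already listed without KLA, at 167.3 and 101.8. A close pair of tall members lay further along, at chr10:18797675-18797807 and chr10:18798002-18798134, where wild type cells had 363.1 and 254.7 and knockout cells 233.0 and 304.7. The order of the pair by height thus differed between the genotypes.

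Chromosome 2 held the next clusters by number. At chr2:128181323-128271406 there were 21 wild type and 14 knockout KLA peaks, summing to 2060.9 and 1398.4. No untreated wild type peak and 1 untreated knockout peak (63.6) lay within it, and LXRβ had 2 peaks. At chr2:116725344-116825627 there were 20 wild type and 18 knockout KLA peaks with sums of 1664.7 and 1715.0, each untreated list had 1 peak (64.3 and 76.3), and LXRβ had 7, more than in any other cluster. The sum was thus lower in the knockout library at the first of these and nearly equal at the second.

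The other 9 of the 12 clusters with most peaks also had large sums in both KLA libraries. The last of the 12 was one of 3 clusters of 15 peaks and was taken for its higher sum, and the chromosome 11 cluster with many untreated peaks described further on was another. Of the 9, chr9:65373454-65428209 had more than 1 untreated peak and is also described further on. The wild type and knockout sums with KLA were 1556.2 and 1356.4 at chr5:115934467-115995166, and 1683.7 and 1643.4 at chr14:75547749-75595677. Neither had an untreated peak in either genotype. Next in the ranking, chr11:8460566-8534891 with 1542.3 and 1583.6 and chr17:45692500-45762581 with 1334.5 and 1458.1, had the higher sum in the knockout library. So did chr9:65373454-65428209, with 1688.2 and 1804.8, and chr14:26278702-26350130, with 1103.6 and 1129.5. The opposite order was found at chr18:50183753-50266239 (1452.7 and 1177.2), chr1:193048264-193123789 (1065.9 and 872.5) and chr11:68245201-68300243 (1589.1 and 1165.2). The ratio of knockout to wild type sum at these 9 clusters ranged from 0.733 to 1.09.

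**Figure D2:**
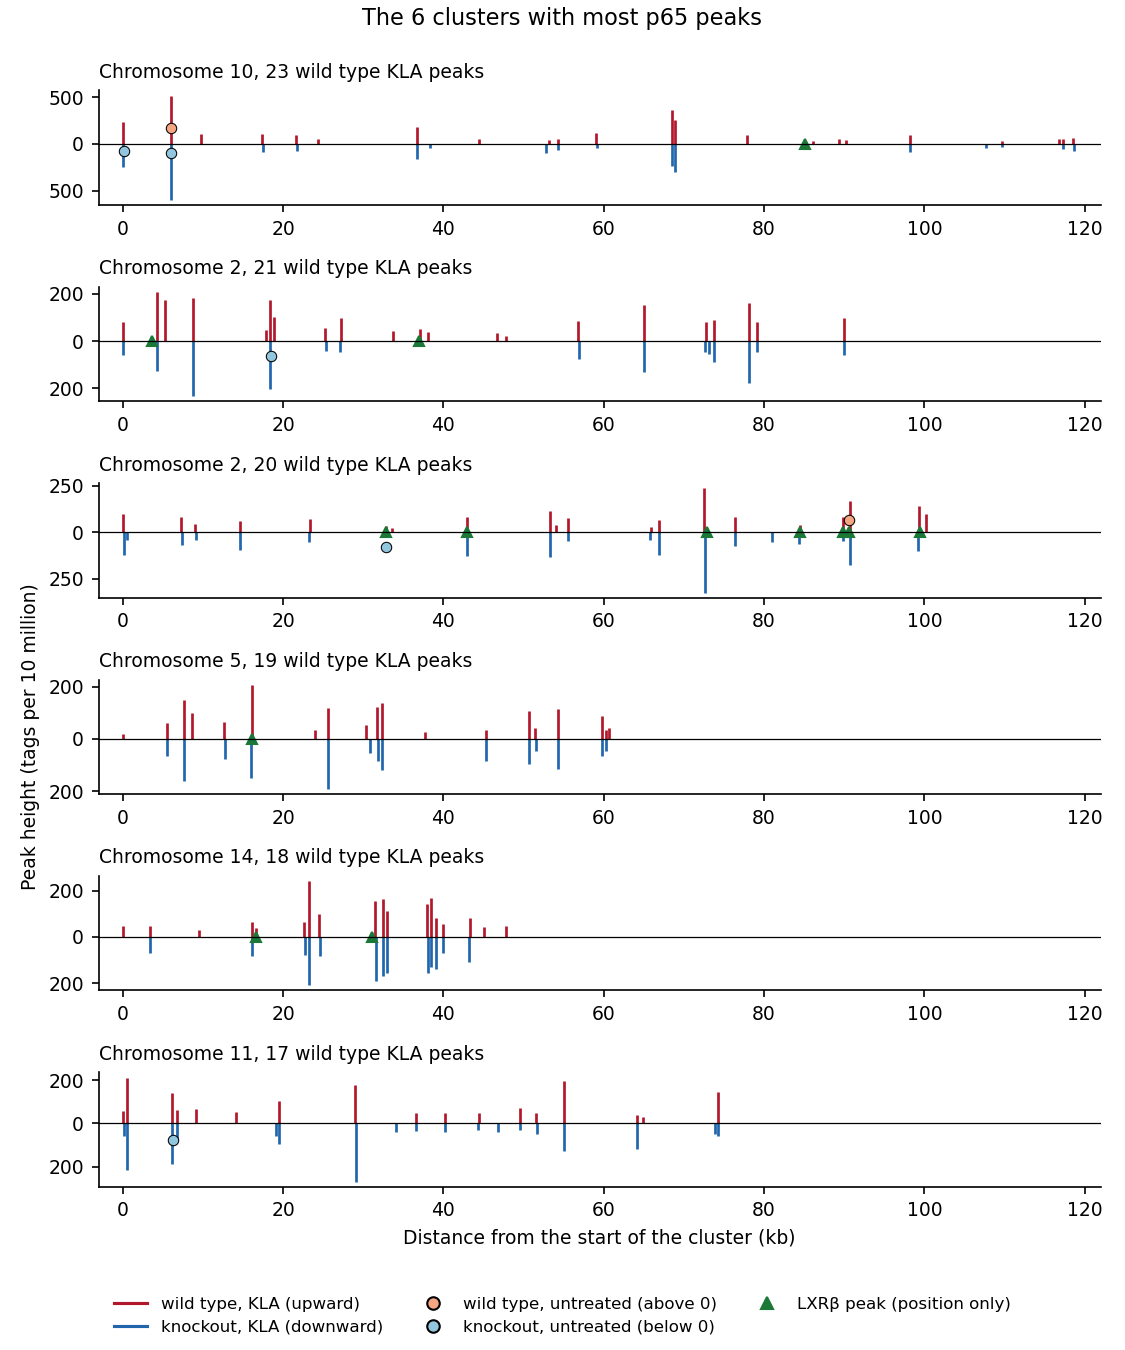
Peaks along the 6 clusters with most members. The horizontal axis is distance from the start of the cluster in kb. Lines give peak height in tags per 10000000 after KLA, upward in red for wild type and downward in blue for knockout cells. Orange circles above and light blue circles below 0 give untreated wild type and untreated knockout peaks at their height, and green triangles on the zero line mark LXRβ peaks by position only. Most tall lines have a partner in the other genotype, with exceptions such as a chromosome 2 peak of 174.5 that has no knockout peak, while untreated peaks are few.

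Some clusters reached a high sum with fewer, taller peaks. The 11 wild type peaks at chr11:117821382-117853318 summed to 2362.9, second to the chromosome 10 cluster, and the 9 knockout peaks there to 1673.2. Both of its tallest members stood at 433.9 in the wild type library. Without NCoR 1 of them had 436.2 and the other, at the far end of the chain, 155.4. At chr2:167556899-167603174, 13 wild type peaks summed to 2065.9 and 10 knockout peaks to 1709.1, and at chr4:144823889-144873436 the values were 2065.7 from 12 peaks and 1780.9 from 10. The untreated wild type and knockout sums were 128.6 and 76.3, 115.8 and 0, and 0 and 241.7 at these 3 clusters. The densest cluster, chr3:122269001-122280559, packed 7 peaks into 11559 bp, with sums of 863.1 and 723.1 and no peak in the other lists. Next in density came chr9:20816388-20826562, whose 6 wild type and 6 knockout peaks summed to 1178.9 and 1380.3, and chr19:11124983-11135610, with 377.3 from 6 peaks and 173.4 from 3.

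The 5 tallest members each lay in a different cluster and kept a similar height without NCoR. Giving the wild type height (with its exact Poisson 95% interval) and then the knockout height, they were chr17:18037852-18037984, with 650.8 (547 to 769) and 627.4, and chr13:20878976-20879108, with 636.7 (534 to 754) and 543.8. After these came chr10:77597969-77598101, with 598.9 (499 to 713) and 573.6, chr2:167603042-167603174, with 580.1 (482 to 692) and 543.8, and chr12:8393577-8393709, with 542.4 (448 to 651) and 567.7. Each knockout value lay inside the counting interval of the wild type value. Untreated wild type peaks were listed at the chromosome 17 and 13 sites, at 64.3 and 90.1, and an untreated knockout peak at the chromosome 17 site, at 76.3.

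The knockout KLA list was not used by the rule. Of the 4289 members, 2775 overlapped a knockout KLA peak by 1 bp or more (64.7%, exact Clopper-Pearson 95% interval 63.2% to 66.1%), against 54.0% of all wild type KLA peaks. The share was 55.8% in chains of 2 to 5 and 46.2% (45.2% to 47.2%) at lone peaks. Every cluster held at least 1 knockout KLA peak and 548 of 550 held 2 or more. All members were listed in 22 clusters and 50% or fewer in 157, while no cluster was without a listed member. Clusters hold several peaks each and 54.0% of all wild type KLA peaks were listed, so few clusters would lack a listed member anyway. Knockout KLA peaks in regions of like span outside the clusters were not counted, so these counts do not set the clusters apart.

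Since members are taller than lone peaks, the shares were also set side by side at equal tag number. Tag numbers are from the height, which differs from the deposited score at 2211 members (51.6%) and puts 34 members at 4 tags, below the list's threshold of 5. Among wild type peaks of 4 to 6 tags the knockout list held 25.6% of members (22.3% to 29.3%) and 22.4% of lone peaks, and at 7 to 9 tags 43.8% (40.7% to 47.1%) and 44.4%. At 10 to 14 tags members stood lower, at 64.3% (61.3% to 67.3%) against 72.8% (70.5% to 75.1%), and at 15 to 29 tags the values were 87.5% (85.4% to 89.4%) and 93.3% (91.7% to 94.7%). At 30 or more tags they were 97.8% and 99.1%. The surplus over all members is thus absent or turned round within classes of similar height from 7 tags upward. Among members of 10 to 14 tags, those in the knockout list had a median fold over local signal of 15.21 and those outside it 11.17. At lone peaks of the same tag number the medians were 49.84 and 51.15. The knockout list, too, was filtered on local signal, and the part of that filter in the lower share was not tested. Of the 1514 members outside the knockout list, 305 (20.1%) had a knockout peak centred within 500 bp, against 6.79% of the 5140 such lone peaks. By the chaining rule members have p65 neighbours nearby and lone peaks do not. Knockout peaks that overlap a neighbouring member were not excluded from this count. The contrast can therefore follow from the rule, and it does not show that the unlisted members were bound in the knockout.

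**Figure D3:**
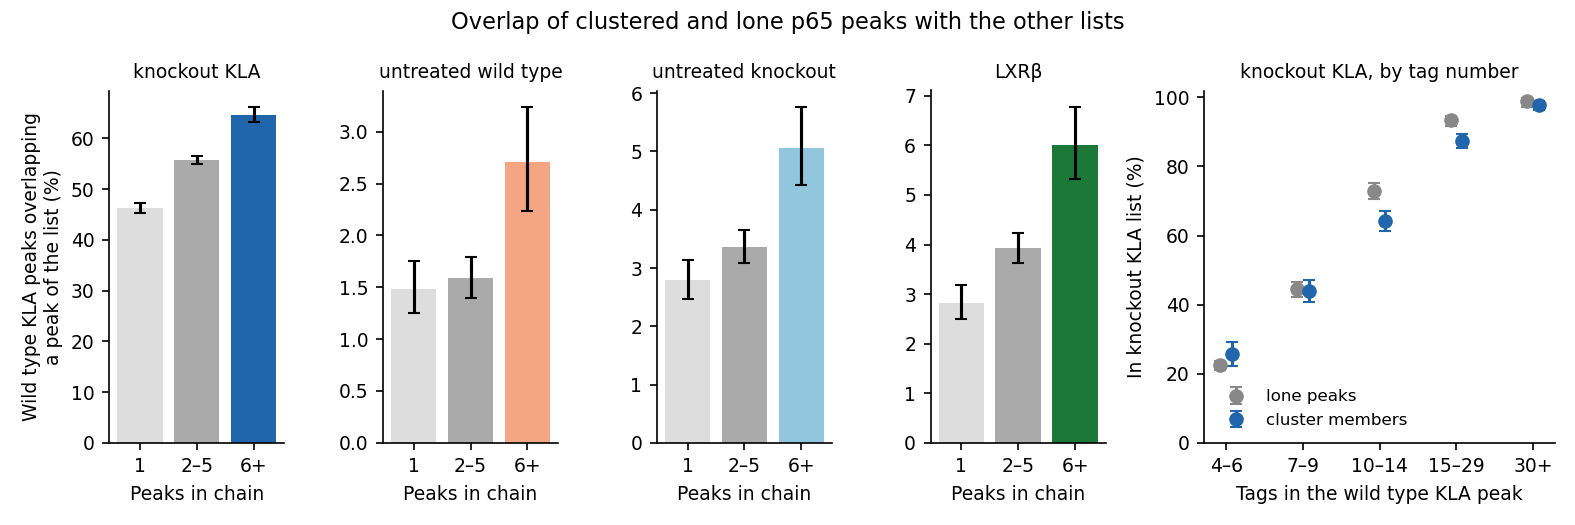
Left, share of wild type KLA peaks (%) that overlap a peak of each other list, for lone peaks (1), chains of 2 to 5 and cluster members (6+). Right, share in the knockout KLA list by the tag number of the wild type peak, for lone peaks in grey and members in blue. Error bars are exact 95% intervals of the counting error. Members have the highest share in each list over all heights, 64.7% for knockout KLA, but at equal tag number they stand below lone peaks in the knockout KLA list at 10 to 14 and 15 to 29 tags. The untreated and LXRβ shares are drawn over all heights only.

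Peak height at shared members was about the same in both genotypes. Among the 2775 shared members the ratio of knockout to wild type height had a median of 1.06 (interval from order statistics 1.04 to 1.07, quartiles 0.826 and 1.34), against 1.09 at 4418 shared lone peaks. It was 2 or more at 119 members (4.29%, against 6.28% of all shared wild type KLA peaks) and 0.5 or less at 76 (2.74%, against 2.43%). Dividing heights by the fixed peak width of each list gave a median of 0.968. The ratio fell with the height of the wild type peak, from a median of 1.52 at 4 to 6 tags through 1.14 at 10 to 14 tags to 0.909 at 30 or more. A low wild type peak could appear as shared only if the knockout height reached 29.9.

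Summed over a cluster, knockout height was lower than wild type height in most clusters drawn from the wild type list. The ratio of the sums had a median of 0.862 (quartiles 0.721 and 0.997), with 132 clusters above 1, 25 at 0.5 or less and 0 at 2 or more. When clusters were built in the same way from the knockout KLA list, the direction turned: over those 321 clusters the median was 1.06 (1.04 to 1.09), with 200 above 1 and 0 at 0.5 or less. The sum was thus higher in whichever genotype had chosen the clusters, and no overall gain or loss of clustered p65 binding without NCoR can be read from it. Of the 2415 members of the knockout clusters, 1903 (78.8%, 77.1% to 80.4%) were matched by a wild type KLA peak, against 71.7% of all knockout KLA peaks. These shares were not set side by side at equal tag number. Of these 321 clusters, 255 (79.4%) touched a wild type cluster, and 251 of the 550 wild type clusters (45.6%) touched a knockout one. The knockout KLA list is shorter (22585 against 30021 peaks) and starts at a greater height (29.9 against 18.9). Fewer chains of 6 can therefore form in it.

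The extremes showed how far single clusters could differ. The lowest ratio, 0.155, was found at chr8:119765118-119792159, where 6 wild type peaks summed to 231.1 and 1 knockout peak had 35.9. The highest, 1.72, was at chr7:108986207-109030945, with 301.7 from 7 wild type and 519.9 from 7 knockout peaks. Both clusters were low, with no wild type peak above 70.7. Across all 550 clusters the sums in both KLA lists rose together (Spearman's rho 0.896, a description over clusters that share both libraries and differ in number of peaks).

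**Figure D4:**
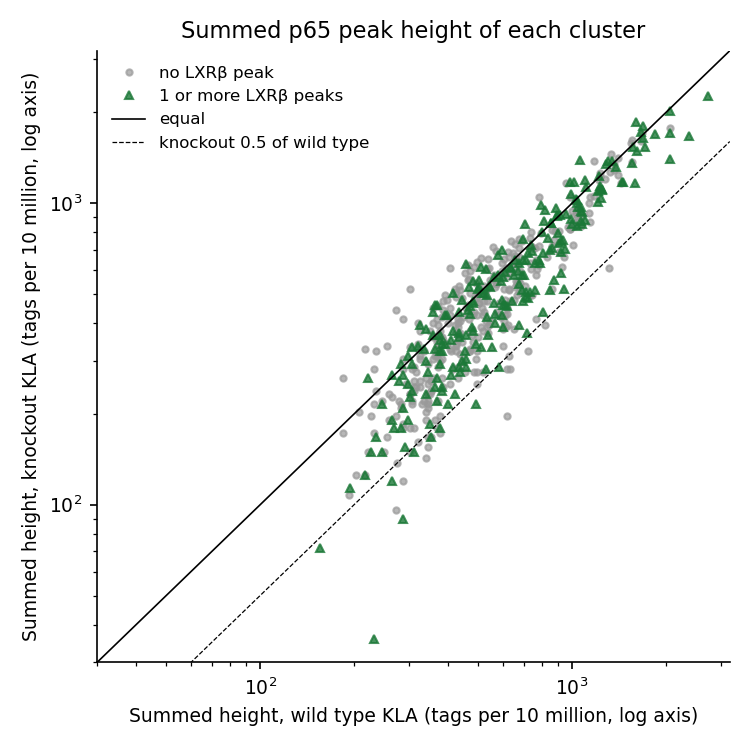
Summed p65 peak height of each of the 550 clusters after KLA in wild type (horizontal) and knockout cells (vertical), in tags per 10000000 on log axes. The solid line marks equal sums and the dashed line a knockout sum of 0.5 of the wild type sum. Green triangles are clusters with 1 or more LXRβ peaks and grey circles those without. 25 clusters lie on or below the dashed line and none reaches a ratio of 2.

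Among clusters of 8 or more peaks, those with the largest and smallest shares of members in the knockout list were compared by name. All 10 members at chr2:102784408-102827334 were listed, with sums of 981.1 and 1177.3, as were all 8 at chr19:3903735-3936660 (632.0 and 615.4) and all 8 at chr2:44808619-44837451 (773.5 and 603.5). At the other end stood chr14:20783538-20806735, with 1 of 8 members listed and sums of 273.5 and 95.7. At chr10:59713174-59755276 and chr3:61098884-61125856, 2 of 8 were listed, with sums of 377.2 and 179.3 and of 344.3 and 155.4. The clusters with few shared members were also the ones with low wild type sums. The tallest member of each cluster was listed in the knockout in 522 of 550 clusters (94.9%, 92.7% to 96.6%). Over all wild type KLA peaks the share listed was 90.2% at 15 to 29 tags and 97.9% at 30 or more. The share at the tallest members is thus near that of tall peaks in general. At these 522 sites the height ratio had a median of 0.915 (quartiles 0.760 and 1.10), with 3 at 2 or more and 23 at 0.5 or less. Over all shared wild type KLA peaks, ratios of 2 or more made up 0.848% at 15 to 29 tags and 0.0980% at 30 or more. Ratios of 0.5 or less made up 6.11% and 3.38%. The 522 sites were picked as the highest of their cluster in the wild type library, which sets their wild type values high.

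Without KLA, few members were listed. Of the 4289 members, 116 overlapped an untreated wild type peak (2.70%, 2.24% to 3.24%, against 1.77% of all wild type KLA peaks and 1.49% of lone peaks). An untreated knockout peak was found at 217 members (5.06%, 4.42% to 5.76%, against 3.47% and 2.79%). In chains of 2 to 5 the untreated wild type and untreated knockout shares were 1.59% and 3.36%. At equal tag number these surpluses shrank or turned round. From the class of 4 to 6 tags up to that of 30 or more, the untreated wild type list held 0.481%, 0.731%, 0.986%, 3.01% and 10.6% of members and 0.607%, 1.01%, 1.54%, 2.49% and 12.9% of lone peaks, so members were lower in 4 of the 5 classes. The untreated knockout list held 1.92%, 3.86%, 4.04%, 6.20% and 9.88% of members and 1.55%, 2.21%, 3.49%, 6.06% and 9.23% of lone peaks. In that list members were higher in each class, though the 95% interval of the difference stayed above 0 at 7 to 9 tags alone. Such intervals take each peak as independent, which peaks of a cluster are not, so they may be too narrow and are no test. The median member height, 56.6, is below the lowest height the untreated lists could hold. Of the 1855 members at or above 64.3 in wild type cells after KLA, 99 (5.34%, 4.36% to 6.46%) were in the untreated wild type list and 1756 were not. Most members that were tall enough to be listed at that depth were thus absent from the untreated wild type list. Members were chosen as KLA peaks, and the share over all wild type KLA peaks at or above 64.3 was not counted. In each tag class the untreated wild type share of all wild type KLA peaks lay inside the 95% interval of the members' share. The count therefore does not set the clusters apart.

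Seen from the untreated lists, 128 of 702 wild type peaks (18.2%, 15.4% to 21.3%) and 258 of 2227 knockout peaks (11.6%, 10.3% to 13.0%) lay in the clusters. Clusters with an untreated wild type peak numbered 108 (19.6%) and those with an untreated knockout peak 200 (36.4%). Both genotypes had one in 62 clusters, wild type alone in 46, knockout alone in 138 and neither in 304. Regions of like span outside the clusters were not counted for comparison. The untreated knockout list was longer over the whole genome as well, with 2227 peaks against 702 from libraries of similar depth, and a difference of such counts between 1 library and another cannot be told apart from a difference between the libraries.

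In the 62 clusters with untreated peaks in both genotypes, the summed height was higher after KLA than before in both genotypes in 60. At the 116 members with a peak in both wild type lists the ratio of height after KLA to height before had a median of 1.78, and it was under 1 at 25. At the 185 members with a peak in both knockout lists the median was 1.07, with 85 under 1. Untreated peaks rested on few tags, since 5 tags already gave a height of 64.3, and only sites that reached that height entered these ratios. Whether the ratio differs between the genotypes was not tested, with 1 library in each group.

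One cluster went against the others. At chr11:102050870-102091648, 11 untreated wild type and 13 untreated knockout peaks were listed, while no other cluster held more than 3 and 4. Its 15 wild type KLA peaks summed to 1230.8 and its 12 knockout KLA peaks also to 1230.8, against 1827.1 and 2887.6 without KLA. Wild type heights ran from 23.6 to 146.2 with KLA and from 102.9 to 270.2 without. Knockout heights ran from 41.8 to 167.3 with KLA and from 63.6 to 330.7 without.

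Every member of that cluster with peaks in both lists of a genotype was lower after KLA. The wild type lists shared 8 such members, with ratios of KLA to untreated height from 0.256 to 0.687, and the knockout lists 9, with ratios from 0.253 to 0.704. The member chr11:102063897-102064029, for example, went from 270.2 without to 141.5 with KLA in the wild type and from 229.0 to 161.3 in the knockout. At chr11:102057824-102057956 the wild type values were 141.5 and 89.6 and the knockout values 330.7 and 101.6. The scaled input tags at its peaks were between 0.0 and 0.5, and LXRβ had no peak in it. Without this cluster 117 untreated wild type and 245 untreated knockout peaks lay in clusters, and the median ratio of KLA to untreated height was 1.92 at 108 wild type members and 1.10 at 176 knockout members.

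**Figure D5:**
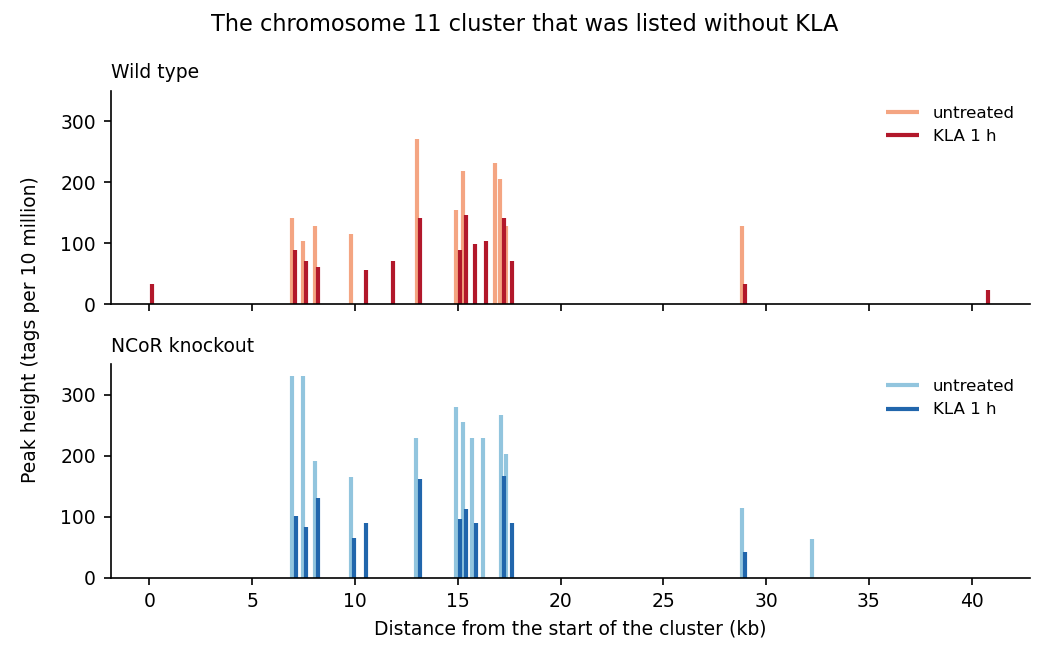
Peak height in tags per 10000000 along the chromosome 11 cluster, by distance from its start in kb, for wild type (top) and knockout cells (bottom). Pale lines are untreated and dark lines 1 h of KLA, drawn slightly apart where both have a peak. The untreated lines stand above the KLA lines at every shared member, with ratios of KLA to untreated height of at most 0.687 and 0.704.

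The other 2 clusters with most untreated peaks behaved differently. At chr9:65373454-65428209, 1 untreated wild type peak (90.1) and 4 untreated knockout peaks (sum 381.5) stood against sums of 1688.2 and 1804.8 after KLA. At chr11:86383999-86438045, 2 untreated peaks in each genotype (141.5 and 178.1) stood against 1221.3 and 1195.0. Both sums were thus much higher after KLA in both genotypes, where many more peaks were added up than without KLA. Beside the chromosome 11 cluster, the untreated sum exceeded the KLA sum in no cluster in wild type cells and in 2 clusters in knockout cells. The first, chr17:84456547-84489253, had 197.2 after KLA and 241.6 before, and the second lay on chromosome 1, at 178744695 to 178762940.

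Sites of LXRβ in RAW264.7 cells, compared by position only, also lay more often at members than at lone peaks. Of the members, 258 overlapped an LXRβ peak (6.02%, 5.32% to 6.77%), against 3.87% of all wild type KLA peaks and 2.82% of lone peaks. In chains of 2 to 5 the share was 3.93%. At equal tag number, in the same 5 classes, the shares were 1.60%, 4.18%, 6.71%, 7.57% and 9.55% of members and 1.73%, 3.27%, 2.55%, 5.34% and 7.38% of lone peaks. Members were thus higher from 7 tags upward, but the 95% interval of the difference stayed above 0 in only 2 of these classes. It was 4.16 percentage points (2.42 to 5.89) at 10 to 14 tags and 2.23 (0.185 to 4.28) at 15 to 29 tags. At 7 to 9 tags it was 0.903 (-0.568 to 2.37) and at 30 or more tags 2.16 (-1.53 to 5.86). These intervals take each peak as independent, which peaks of a cluster are not, so they may be too narrow. The classes were chosen after seeing the data, and the difference was not tested. The clusters held 356 LXRβ peaks (13.0% of that list, 11.7% to 14.3%), of which 252 met a p65 peak of the wild type KLA list and 104 lay between such peaks. LXRβ peaks were present in 222 clusters (40.4%), and 77 had 2 or more. Their median height was 10.9 inside and outside the clusters. Regions of like span outside the clusters were not counted for LXRβ peaks.

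After the chromosome 2 cluster with 7, LXRβ peaks were most numerous at chr3:79335742-79376566, with 6, and at chr14:26278702-26350130, with 5. On chromosome 2 the tallest of the 7 had a height of 41.0 and the others 8.2 to 14.6, and 5 of the 20 p65 members there overlapped an LXRβ peak. The chromosome 3 cluster had only 8 wild type and 7 knockout KLA p65 peaks, with sums of 514.1 and 502.1 and no untreated peak, and its LXRβ heights lay between 10.0 and 13.7. Apart from the tallest, the LXRβ peaks of these clusters were thus near the median of their list, 10.9.

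Members with an LXRβ peak were taller in the wild type KLA list than those without, and the shares below are not at equal tag number. Their median wild type KLA height was 75.5, against 56.6 at the other 4031 members. They were in the knockout KLA list at 78.3% (72.8% to 83.2%) against 63.8% (62.3% to 65.3%), in the untreated knockout list at 18.2% (47 members) against 4.22% (170), and in the untreated wild type list at 8.14% (21) against 2.36% (95). Where shared, their knockout to wild type height ratio had a median of 1.00 (0.941 to 1.06, 202 members), against 1.06 (1.04 to 1.09, 2573 members). Ratios of 2 or more were found at 8 members with and 111 without LXRβ, and ratios of 0.5 or less at 3 and 73. Over all members these shares rose, and the ratio fell, with the tag number of the wild type peak. Whether members with LXRβ differ from the others at equal tag number was not tested.

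These values differed with the size of the cluster. The 333 clusters of 6 or 7 peaks, the 173 of 8 to 11 and the 44 of 12 or more had median wild type sums of 415, 655.6 and 1228.5 and median member heights of 51.9, 56.6 and 66.0. The share of members in the knockout KLA list was 61.9%, 66.9% and 68.7%, and 29.7%, 64.7% and 90.9% of these clusters touched a cluster built from the knockout list. Touching needs a chain of 6 or more knockout peaks, which is harder to reach in clusters of 6 or 7 peaks. The rise of this share with size thus partly follows from the rule. The larger clusters more often held a peak of the other lists, although they also cover more sequence, with median spans of 26099, 36885 and 57886 bp. In order of size, an untreated wild type peak was found in 50, 41 and 17 of them, an untreated knockout peak in 103, 70 and 27, and an LXRβ peak in 106, 83 and 33. The median ratio of knockout to wild type sums was 0.838, 0.889 and 0.901.

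The wild type KLA list was called with no input library, so the input of the other p65 lists was read at the members they share. Scaled input tags at the knockout KLA peaks of members had a median of 0.2. A value of 1 or more occurred at 16 members in 11 clusters, with a highest value of 2.1, and 5 of the 15 members on chromosome X were among them.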

How the data were processed

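Peak lists of 5 libraries were used, with 1 library in each group, grouped by sample title. Reads were aligned to mm9 with Bowtie 0.12.7 and processed with HOMER, as the submitters' processing notes name them. Peaks were called per library at a false discovery rate of 0.001, with at most 1 tag per bp, 4-fold over the surrounding 10000 bp and, except for wild type KLA, 4-fold over input, per the file headers. The deposited normalized tag count is a signal value per 10000000 tags. The deposited findPeaks score and the counts of scaled input tags were used in alternatives and to describe peaks, and the local fold is a ratio made by the authors. The deposited p-values and the deposited fraction of tags on the expected strand were not used further. Tag numbers per p65 peak were recovered from height and total tags, while the worth of an LXRβ tag was read from height over score. Local filtering had removed 5916 wild type KLA and 3116 knockout KLA peaks, per the file headers.

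Chaining and overlaps (1 bp or more, nearest centre) were computed with Python 3.11.15, numpy 2.4.6, pandas 2.3.3 and scipy 1.17.1, and the code was tested on simulated lists. A peak of another list was counted in a cluster if its centre lay between the first and last edge of the chain. Intervals are exact binomial, exact Poisson or from order statistics, at 95%, and cover counting error only. No test between groups was run. Intervals of a difference between shares use the normal approximation and take each peak as independent. Named clusters are the 12 with most peaks (ties by summed height), the 3 further ones with the highest sum, the 3 each with most untreated or LXRβ peaks, largest or smallest knockout share (8 or more peaks), greatest length or density, and those of the 5 tallest members. Other regions were named after their values were seen. The members and lists were chosen with earlier results of these data known. No mm9 sequence or annotation was used here, so sites are given by position alone. The other 18 samples of the series were not analysed here.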

Additional observations from a re-analysis of the deposited data

Results flagged for a closer look

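The cluster on chromosome 1 from 178744695 to 178762940 (7 wild type KLA peaks) moved in opposite directions with KLA in the genotypes. Its summed height after KLA over that before was 4.84 in wild type cells (311.2 against 64.3) and 0.903 in knockout cells (149.4 against 165.4). The difference was not tested. The untreated values rest on 1 wild type and 2 knockout peaks, and 2 knockout peaks were listed after KLA. LXRβ had 2 peaks there. It was the only one of the 62 clusters with untreated peaks in both genotypes in which the directions differed.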

How the results depend on the processing

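No paired analysis was possible because each group is 1 library. With neighbours at most 5 or 25 kb apart, 39 and 1189 clusters (255 and 10877 members) were found, and with chains of at least 5 or 8 peaks 929 and 217 (2165 members at 8). Wild type peaks of 7 or more tags, which are the same peaks as those at or above the lowest knockout height, gave 318 clusters and 2482 members. The share of members in the knockout KLA list was 69.4% and 60.9% at 5 and 25 kb, 67.4% with 8 or more peaks, 71.6% from 7 tags, 61.4% with centres at most 100 bp apart and 53.9% with a reciprocal overlap of 50%. Its excess over lone peaks, 18.5 percentage points, became 16.5 at 25 kb, 21.2 with 8 or more peaks, 16.2 with reciprocal overlap, 5.20 from 7 tags and, within tag classes (chosen after seeing the data), 3.21, -0.583, -8.54, -5.82 and -1.25 from 4 to 6 up to 30 or more tags. In the same classes, also added later, the excess of 1.22 points for the untreated wild type list became -0.126, -0.283, -0.556, 0.518 and -2.37, that of 2.27 for the untreated knockout list 0.372, 1.65, 0.556, 0.149 and 0.652, and that of 3.19 for LXRβ -0.128, 0.903, 4.16, 2.23 and 2.16. The untreated wild type share was 5.10%, 2.05%, 3.34% and 2.05% at 5 kb, 25 kb, from 7 tags and with reciprocal overlap, and the untreated knockout share 7.45%, 4.12%, 5.92% and 4.10%. The LXRβ share was 4.92%, 7.25%, 3.73% and 7.11% at 25 kb, from 7 tags, with reciprocal overlap and with 8 or more peaks. Clusters with LXRβ were 30.8% at 5 kb, 35.8% and 53.5% with 5 or 8 peaks and 44.7% from 7 tags. Clusters with untreated peaks in both genotypes, 11.3%, were 7.69%, 18.4% and 14.5% at 5 kb, with 8 peaks and from 7 tags, and those touching a knockout cluster 23.1%, 52.9%, 40.6% and 61.9% at 5 kb, 25 kb, with 8 peaks and from 7 tags. The median height ratio at shared members was 0.968 per bp, 1.01 from the score and 1.01 from 7 tags. The ratio of cluster sums was 0.790 per bp, 0.830 from the score, 0.894 with 8 or more peaks and 1.06 when clusters were built from the knockout list (chosen after seeing the data). Values without the chromosome 11 cluster, or without clusters with input tags, also chosen after seeing the data, stayed inside the counting intervals of the main ones or within 1.5 times for counts. The causes of these changes were not tested, apart from the number of peaks that each setting admits.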
